A study of Homo sapiens with 12 samples.

Results

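The MYC and MAX network is the set of transcription factors built around MYC, its partner MAX and the related partner MLX. Its members were taken by gene symbol from the deposited expression table as MYC, MAX, MXD1, MXD3, MXD4, MXI1, MNT, MGA, MLX and MLXIP, which are 10 of the 59276 features listed. All 10 passed the filter on low values (a TPM of 1 or more in 3 or more of the libraries) and were among the 11939 features tested. TPM, the unit of the table, is the share of a library's transcripts that a gene holds, corrected for its length and scaled to the same total in every library. The libraries came from MM1S, an established human multiple myeloma line of plasma cell type. There were 3 untreated libraries at day 0, and treated cells were sampled in triplicate on days 2, 3 and 5 of exposure to NGI-1 at 10 μM. NGI-1 is an inhibitor of oligosaccharyltransferase, the enzyme complex that attaches N-linked sugar chains to proteins entering the secretory pathway. The comparison asked how blocking this complex changed the transcriptome of myeloma cells over time.

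MYC is an activating factor that binds DNA as a dimer with MAX at the E-box, a short palindromic motif. MXD1, MXD3, MXD4, MXI1, MNT and MGA also pair with MAX, occupy the same motif and repress, so that these proteins and MYC share 1 partner. MLX is a second partner, which pairs with MNT, with some MXD proteins and with the glucose-sensing factor MLXIP, also called MondoA. In multiple myeloma MYC is a frequent target of chromosome rearrangements and is tied to the plasma cell factor IRF4.

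The labels of the day 0 libraries also give NGI-1 as their treatment, and they are called untreated here because the study treats them so. No library of untreated cells from a later day was used, so time in culture and NGI-1 cannot be told apart, and all comparisons with untreated share the same 3 libraries. Nothing in the labels says whether the 3 libraries of a group came from separate cultures, so the p-values measure the spread between these libraries, which may be technical. More than 60 M read pairs were stated for each library, and every library summed to the same TPM total, so that counts and the counting error are unknown. Day 3 library 2 held the highest TPM of its group for 9 of the 10 members and day 5 library 3 for 10 of 10. After the rescaling described below, in which these libraries had the largest factors of their groups (0.891 and 0.739), the counts were 7 and 8. Calls that change without day 3 library 2 or day 5 library 3 are given beside the gene. The 12 plasma cell markers were all detected. CD22, CD3D, FCGR3A, COL1A2 and EPCAM, from lists of B cell, T and NK cell, myeloid, and stromal and epithelial markers, were listed at 0 in every library. Of those lists, 1 of 6 B cell, 1 of 6 T and NK cell, 0 of 6 myeloid and 3 of 7 stromal and epithelial markers reached a mean TPM of 1. They were CD79B (10.6 TPM in untreated cells), CD3E (3.00), KRT8 (2.90), KRT18 (13.2) and PECAM1 (5.54). On the deposited scale CD3E and KRT8 were called higher at days 2 and 3, and KRT18 and PECAM1 lower at days 3 and 5. The summed TPM of the plasma cell markers was between 12150 and 14300 in untreated cells, 19200 and 22390 at day 2, 25610 and 28470 at day 3, then 19980 and 21270 on day 5. That sum was mostly JCHAIN, the joining chain of antibodies, at a mean of 9697 TPM in untreated cells. Of the 12 markers 6 were called lower and 3 higher at day 5, with a median log2 change of -0.52, against 69.8% and 7.73% of all features. After the rescaling described below 2 were lower and 6 higher, with a median of 0.54, against 26.9% and 27.5% of all features. The part of these markers in the results was not tested.

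The share of TPM held by the 20 most abundant features was between 21.7% and 22.3% in untreated libraries and between 36.7% and 38.9% at day 5. A TPM is a share, and the median log2 change over all tested features was -0.18 at day 2, -0.73 at day 3 and -0.99 at day 5. Each result is therefore given on the deposited scale, the log2 of TPM plus 1, and after rescaling, in which each library was divided by 1 factor that brought the median of 5433 well expressed features to the same level. After rescaling the medians were 0.013, -0.027 and -0.019. In a bulk sample, fewer cells with a transcript and less of it per cell cannot be told apart, and neither scale says how much RNA a cell held.

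On GRCh38 (GENCODE release 29) all 10 members are protein-coding genes. MYC lies on the plus strand of chromosome 8 from 127735434 to 127741434, MAX on the minus strand of chromosome 14 from 65006174 to 65102695 and MGA on the plus strand of chromosome 15 from 41621224 to 41773081. Among the repressors, MXD1 spans 69897688 to 69942945 of chromosome 2 (plus), MXD3 spans 177301461 to 177312757 of chromosome 5 (minus), MXD4 spans 2247432 to 2262294 of chromosome 4 (minus), MXI1 spans 110207605 to 110287365 of chromosome 10 (plus) and MNT spans 2384060 to 2401118 of chromosome 17 (minus). MLX spans 42567068 to 42573239 of chromosome 17 (plus) and MLXIP spans 122078722 to 122147347 of chromosome 12 (plus). Exons of 8 members share bases with another gene, the exceptions being MYC and MLXIP. The sources used here do not say whether the libraries kept strand, and reads from shared bases could be split between such genes.

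After 2 days of NGI-1, 1 member was higher and 0 were lower. A gene was called lower or higher where the limma test gave a Benjamini-Hochberg adjusted p under 0.05 over all tested features and a log2 change over 0.5 in size. Over all features 8.03% were called higher and 23.2% lower at day 2. At day 3, 7 members were lower and 1 was higher, against 61.5% and 7.59% of all features, and at day 5 the counts were again 7 and 1, against 69.8% and 7.73%. The shares of members called lower at days 3 and 5 were thus near those of all features. The median log2 change of the 10 members was 0.17 at day 2, -0.83 at day 3 and -0.999 at day 5, so it lay above the median of all features at day 2 and close to it later. The member called higher was MXD4 on each day. Without day 3 library 2 and day 5 library 3 the calls came to 0 lower with 1 higher on day 2, 7 with 1 on day 3 and 8 with 1 on day 5.

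**Figure D1:**
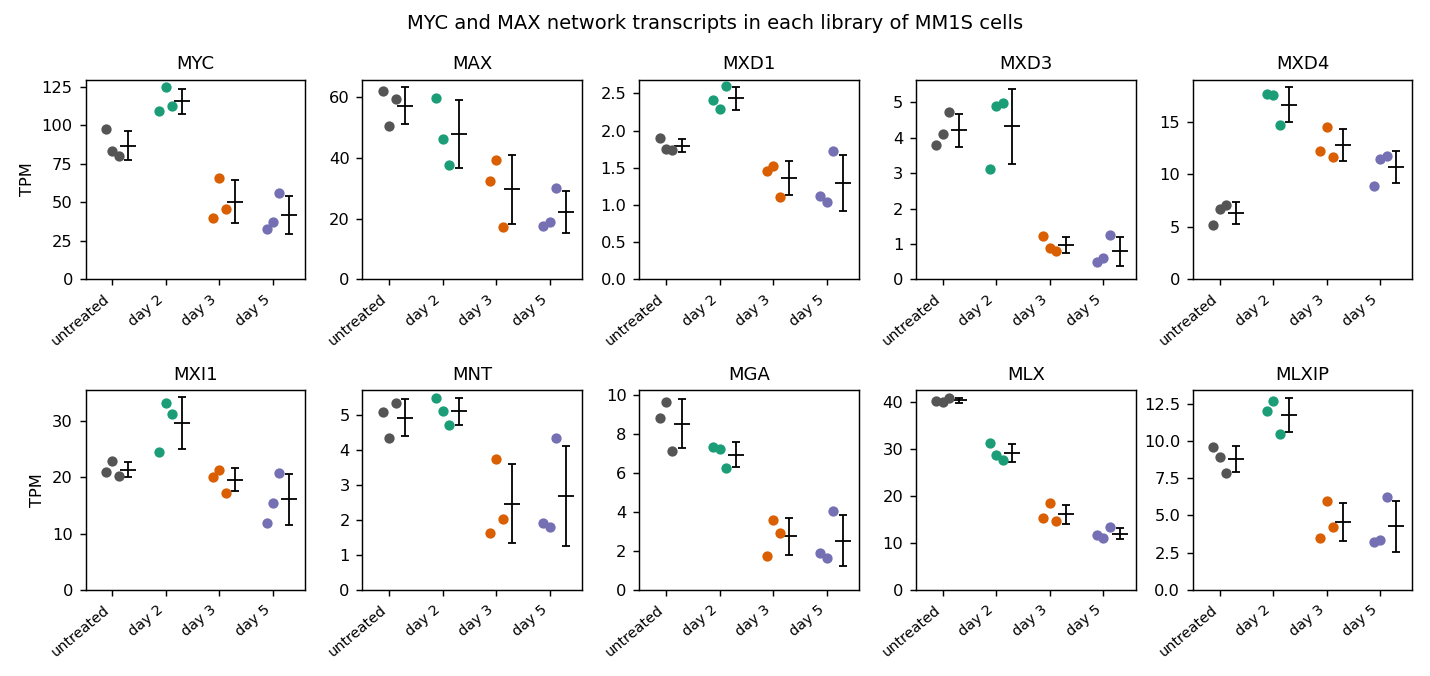
TPM of each of the 10 network genes (vertical axis, linear, from 0) in the 3 libraries of each group (points, in order of library number), with the mean and SD beside them. MYC and MLXIP were highest at day 2, MXD4 stayed above its untreated libraries at every day, and MLX fell from 40.3 TPM in untreated cells to 11.97 at day 5.

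After rescaling the members split. At day 2, 4 members were higher (MYC, MXD4, MXI1 and MLXIP) and 0 lower, where 12.9% of all features were higher and 11.4% lower. At day 3, 2 were higher (MXD4 and MXI1) and 2 lower (MXD3 and MGA), against 23.9% and 24.2%. At day 5, 2 were higher (MXD4 and MXI1) and 3 lower (MXD3, MGA and MLX), against 27.5% and 26.9%. The members' median log2 change after rescaling was 0.31 at day 2, -0.12 at day 3 and 0.12 at day 5. MXD4, called higher on each day, kept those calls under both scalings. MXD3 and MGA kept their lower calls at days 3 and 5, and MLX kept its lower call at day 5. The rescaled calls of MGA, and that of MLX at day 5, were lost with single libraries left out.

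MYC was the most abundant member in every group. It was at 97.2, 83.1 and 79.8 TPM in the untreated libraries, 109, 125 and 113 TPM at day 2, 39.8, 65.9 and 45.5 TPM at day 3, and 32.7, 37.2 and 55.9 TPM at day 5. All day 2 libraries lay above, and all day 3 and day 5 libraries below, the untreated ones. The day 2 difference was 0.41 on the log2 scale (SE 0.192, adjusted p = 0.0964) and did not pass the test on the deposited scale, whereas after rescaling MYC was higher by 0.64 (SE 0.142, adjusted p = 0.00292). Without day 3 library 2 and day 5 library 3 the deposited difference was again 0.41. Its limma adjusted p was then 0.0037, so only the fold limit was missed. MYC fell by 0.80 at day 3 (SE 0.192, adjusted p = 0.0017) and by 1.06 at day 5 (SE 0.192, adjusted p = 1.40e-04). These falls were close to the median of all features, and after rescaling the differences were 0.055 and 0.14 with adjusted p-values of 0.751 and 0.388. By the median of the 3 libraries, the level of MYC exceeded that of 88.5% of them in untreated cells, 93.2% at day 2, 89.2% at day 3 and 89.1% at day 5.

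MAX, the partner shared by MYC and the MXD proteins, was the next most abundant member in untreated cells. Its TPM was 62.1, 50.5 and 59.4 in untreated libraries and 59.9, 46.4 and 37.7 at day 2. By day 3 it had 32.3, 39.4 and 17.2 TPM, and on day 5 17.7, 18.8 and 30.0 TPM. The day 2 libraries overlapped the untreated ones and those of days 3 and 5 lay below them. MAX fell by 1.0 at day 3 (SE 0.265, adjusted p = 0.00339) and by 1.37 at day 5 (SE 0.265, adjusted p = 2.63e-04). After rescaling its differences were -0.042, -0.15 and -0.18 at days 2, 3 and 5, and none passed the test.

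MXD4, which pairs with MAX and recruits the SIN3 corepressor, was the 1 member whose transcript rose on every day on the deposited scale. It was at 5.16, 6.65 and 7.11 TPM in untreated libraries and at 17.7, 17.6 and 14.7 TPM at day 2. It was at 12.2, 14.5 and 11.6 TPM at day 3 and at 8.91, 11.5 and 11.7 TPM at day 5. Each of the 9 treated libraries lay above all untreated ones. The log2 change was 1.28 at day 2 (SE 0.144, adjusted p = 1.15e-05), 0.92 at day 3 (SE 0.144, adjusted p = 5.01e-05) and 0.68 at day 5 (SE 0.144, adjusted p = 5.51e-04). After rescaling it was 1.44, 1.67 and 1.76. Its mean TPM was lower at each later day than at day 2, while its mean rescaled level was not, at 13.0 at day 2, 15.5 at day 3 and 16.6 at day 5. The rank of MXD4 went from above 36.6% of the tested features in untreated cells to above 64.8%, 68.3% and 68.4% at days 2, 3 and 5. Its exons share bases with the microRNA gene MIR4800.

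MXI1 is a repressor of the same family and was its most abundant member here. Its TPM was 20.9, 22.8 and 20.25 in untreated libraries, 24.5, 33.3 and 31.3 at day 2, then 20.1, 21.35 and 17.3 at day 3 followed by 11.9, 15.5 and 20.8 on day 5. The day 2 libraries were all above the untreated ones, and those of days 3 and 5 overlapped them. On the deposited scale the differences were 0.45 (adjusted p = 0.0435), -0.12 (adjusted p = 0.525) and -0.42 (adjusted p = 0.0334), none of them over the fold limit. MXI1 would have been called higher at day 2 without day 2 library 1, at 0.58, and lower at day 5 without day 5 library 3, at -0.61. After rescaling it was higher on all 3 days, by 0.66 (adjusted p = 8.05e-04), 0.70 (adjusted p = 2.24e-04) and 0.74 (adjusted p = 1.12e-04). With MXD4 it was 1 of the 2 members called higher on every day after rescaling.

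MXD3, a repressor known from proliferating progenitor cells, fell after day 2. Its TPM was 3.81, 4.10 and 4.73 in untreated libraries, 3.11, 4.91 and 4.97 at day 2, then 1.22, 0.880 and 0.800 at day 3 followed by 0.491, 0.615 and 1.26 on day 5. All libraries of days 3 and 5 were below all earlier ones, and 8 of the 12 libraries reached a TPM of 1. The log2 change was 0.015 at day 2 (adjusted p = 0.955), -1.41 at day 3 (SE 0.186, adjusted p = 1.01e-05) and -1.56 at day 5 (SE 0.186, adjusted p = 2.51e-06). Because 1 is added before the log, these values understate the change of a gene this low, and the ratio of mean TPM to untreated was 0.229 at day 3 and 0.187 at day 5. MXD3 stayed lower after rescaling, by -0.81 (adjusted p = 0.00119) and -0.82 (adjusted p = 9.57e-04). Its exons share bases with RAB24 and PRELID1, which are more abundant at 21.6 and 230.0 TPM in untreated cells. The log2 changes of RAB24 and PRELID1 at day 5 were -1.05 and -1.62, or 0.095 and -0.41 after rescaling, and what shared reads contribute to MXD3 was not tested.

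MXD1, the founding member of the MXD family, was at 1.89, 1.75 and 1.74 TPM in untreated libraries. It was at 2.41, 2.29 and 2.60 TPM at day 2, 1.46, 1.52 and 1.11 TPM at day 3, and 1.12, 1.04 and 1.73 TPM at day 5. The day 2 libraries lay above and the later ones below the untreated libraries, but the log2 differences of 0.30, -0.25 and -0.30 had adjusted p-values of 0.0928, 0.111 and 0.056. Without day 3 library 2 and day 5 library 3 the differences were 0.30, -0.30 and -0.43. Their limma adjusted p-values were then 0.0364, 0.0401 and 0.00599, with each difference under the fold limit. After rescaling of all libraries the differences were 0.40, 0.27 and 0.44, under the fold limit, although the adjusted p was 0.0121 at day 2 and 0.0038 at day 5. Without day 5 library 2 the rescaled day 5 value was 0.51 and was called. MXD1 shares exonic bases with SNRNP27, at 49.7 TPM in untreated cells, whose log2 change at day 5 was -1.06.

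MNT, the widely expressed repressor that pairs with both MAX and MLX, was at 5.10, 4.33 and 5.34 TPM in untreated libraries. At day 2 it was at 5.48, 5.13 and 4.71 TPM, at day 3 at 1.62, 3.75 and 2.03 TPM and at day 5 at 1.91, 1.80 and 4.33 TPM. Day 5 library 3 reached the lowest untreated value, day 3 library 2 lay just under it, and the other 4 libraries of these days were at 2.03 TPM or less. MNT fell by 0.82 at day 3 (SE 0.245, adjusted p = 0.00743) and by 0.75 at day 5 (SE 0.245, adjusted p = 0.0112). The day 5 call was lost without day 5 library 1, at -0.61, or library 2, at -0.58, and without both libraries that stood apart the values were -1.07 and -1.05. After rescaling the differences were -0.15 and 0.19 (adjusted p = 0.555 and 0.447).

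MGA, a very large protein that pairs with MAX and carries it into the Polycomb complex PRC1.6, was among the members that fell furthest. Its TPM was 8.84, 9.63 and 7.15 in untreated libraries and 7.36, 7.25 and 6.23 at day 2. It was 1.74, 3.61 and 2.90 TPM at day 3, and 1.90, 1.65 and 4.06 TPM at day 5. Every day 3 and day 5 library was below every untreated and day 2 library. MGA fell by 1.37 at day 3 (SE 0.235, adjusted p = 1.11e-04) and by 1.48 at day 5 (SE 0.235, adjusted p = 4.17e-05). After rescaling it was lower by -0.65 (adjusted p = 0.0159) and -0.51 (adjusted p = 0.0466). These rescaled calls rested on single libraries: the day 3 call was lost without untreated library 2 or day 3 library 1, at -0.58 and -0.44, and the day 5 call was lost when any of 8 libraries was left out, with values from -0.51 to -0.33.

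MLX, the common partner of MNT and the Mondo proteins, had the largest log2 fall of any member at day 5 on the deposited scale, while MXD3 fell further by the ratio of mean TPM and after rescaling. It was at 40.1, 39.9 and 40.9 TPM in untreated libraries, at 31.2, 28.6 and 27.6 TPM at day 2, at 15.2, 18.4 and 14.7 TPM at day 3, and at 11.6, 10.95 and 13.3 TPM at day 5. The 4 groups did not overlap, each day lying below the one before. The day 2 difference was -0.46 (SE 0.108, adjusted p = 0.00389), under the fold limit, and without day 2 library 1 it was -0.50 and was called. MLX fell by 1.28 at day 3 (SE 0.108, adjusted p = 1.63e-07) and by 1.68 at day 5 (SE 0.108, adjusted p = 5.85e-09). After rescaling the differences were -0.23, -0.44 and -0.51, the last of them just past the fold limit (adjusted p = 8.32e-05) and short of it without untreated library 3 (-0.50), day 5 library 2 (-0.47) or day 5 library 3 (-0.49). PSMC3IP lies on the other strand and shares exonic bases with MLX. Its mean was 13.6 TPM in untreated cells and 0.808 TPM at day 5, and what shared reads contribute to MLX was not tested.

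MLXIP, the glucose-sensing partner of MLX, did not follow MLX at day 2. Its TPM was 9.63, 8.92 and 7.85 in untreated libraries, 12.01, 12.7 and 10.5 at day 2, then 3.47, 5.99 and 4.22 at day 3 followed by 3.25, 3.33 and 6.26 on day 5. The day 2 libraries were all above, and the later ones all below, the untreated libraries, the same order of groups as for MYC. The day 2 difference was 0.38 on the deposited scale (SE 0.206, adjusted p = 0.153) and 0.57 after rescaling (SE 0.165, adjusted p = 0.0144), and the rescaled call was lost without untreated library 3, at 0.50. Without day 3 library 2 and day 5 library 3 the deposited day 2 difference was again 0.38. Its limma adjusted p was then 0.0127, with the difference under the fold limit. MLXIP fell by 0.84 at day 3 (SE 0.206, adjusted p = 0.00201) and by 0.93 at day 5 (SE 0.206, adjusted p = 7.68e-04). After rescaling these were -0.094 and 0.11 (adjusted p = 0.638 and 0.578).

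**Figure D2:**
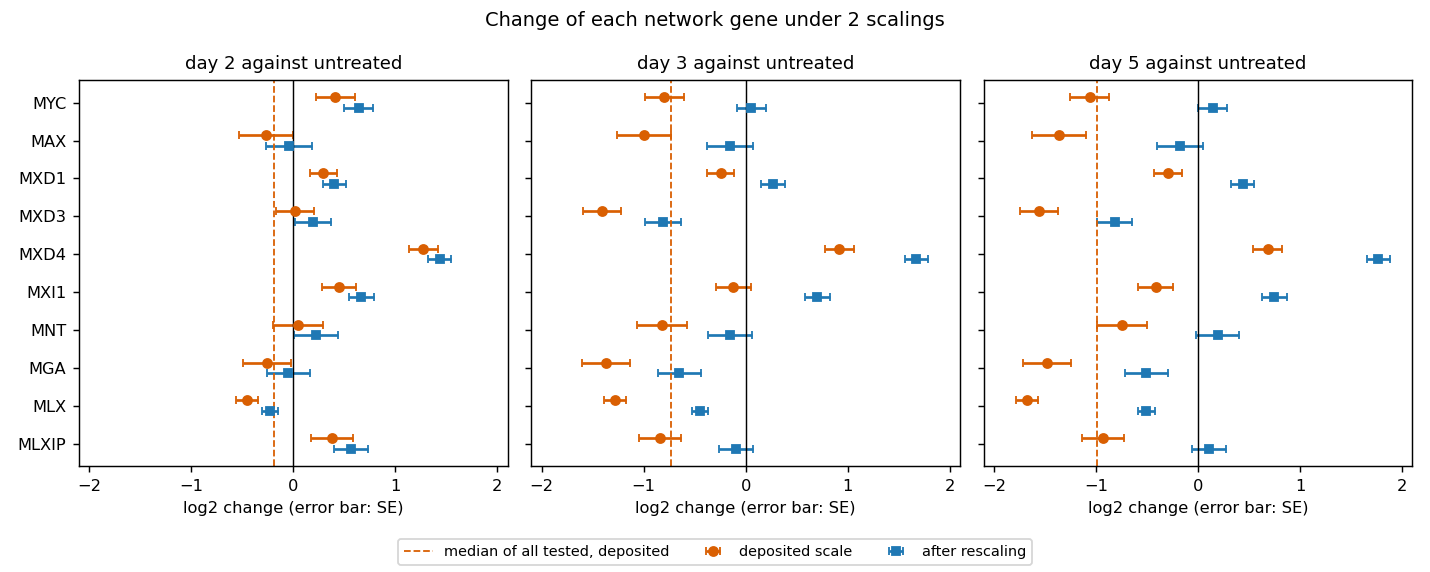
Log2 change of each network gene against untreated (horizontal axis) at days 2, 3 and 5 of NGI-1, on the deposited scale (circles) and after rescaling (squares), with the SE as error bars and the deposited median of all tested features as a dashed line. MXD4 lies to the right of 0 on all days under both scalings, and at day 5 MYC and MLXIP lie next to the dashed line, at -0.99, on the deposited scale.

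The step from day 2 to day 3 was where most members fell. In that comparison 9 members were lower and 0 higher, where 55.5% of all features were lower and 3.22% higher. The member not called was MXD4, with a difference of -0.36 (adjusted p = 0.0381). After rescaling 4 members were lower, against 13.6% of all features, and 0 were higher, against 14.3%. These were MYC at -0.58 (adjusted p = 0.00471), MXD3 at -1.002 (adjusted p = 5.53e-04), MGA at -0.60 (adjusted p = 0.0325) and MLXIP at -0.66 (adjusted p = 0.00561). The rescaled call of MYC was lost without day 3 library 1, at -0.44, and that of MGA without day 2 library 1, day 2 library 2 or day 3 library 1, at -0.56, -0.58 and -0.39. Without day 3 library 2, MNT was called too, at -0.59. On the deposited scale 3 calls of this step were lost with single libraries left out: MAX without day 2 library 1 (-0.56) or day 3 library 3 (-0.39), MXD1 without day 3 library 3 (-0.46), and MXI1 without day 2 library 2 or day 3 library 3 (-0.49 each).

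Between days 3 and 5 no member was called by limma, where 13.1% of all features were lower and 0.67% higher. After rescaling the counts were again 0 and 0, against 2.03% lower and 4.43% higher. On the deposited scale the differences ran from -0.40 to 0.07, and 1 member had an unadjusted p under 0.05. It was MLX, at -0.40 (SE 0.108, adjusted p = 0.0167), under the fold limit. MAX would have been called lower without day 3 library 3, at -0.70.

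MXD4 and MXI1 made up a larger part of the network's transcripts in treated cells. Of the summed TPM of the 10 members, MYC held 36.0% ± 2.05 in untreated cells, 42.9% ± 2.50 at day 2, then 35.7% ± 4.29 and 36.5% ± 0.857 on days 3 and 5 (SD, n = 3). The 5 repressors MXD1, MXD3, MXD4, MXI1 and MNT together held 16.1% ± 1.43, 21.6% ± 1.88, 26.8% ± 2.44 and 27.7% ± 1.78 (SD, n = 3), and no treated library fell into the untreated range. MXD4 alone went from 2.64% ± 0.541 to 9.60% ± 1.69 at day 5, and MXI1 from 8.90% ± 0.855 to 14% ± 1.06 (SD, n = 3). Other repressors held less at day 5, MXD3 going from 1.76% ± 0.262 to 0.661% ± 0.163 and MGA, which acts through PRC1.6 and is not among the 5, from 3.56% ± 0.558 to 2.14% ± 0.552 (SD, n = 3). MLX also held less, going from 16.8% ± 0.916 in untreated cells to 10.8% ± 0.661 at day 2 and 10.8% ± 1.89 at day 5 (SD, n = 3). The sum itself was 240.2 TPM in untreated cells, 269 at day 2, 141 at day 3 and 114 at day 5. These shares do not depend on the scaling between libraries and were not tested.

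**Figure D3:**
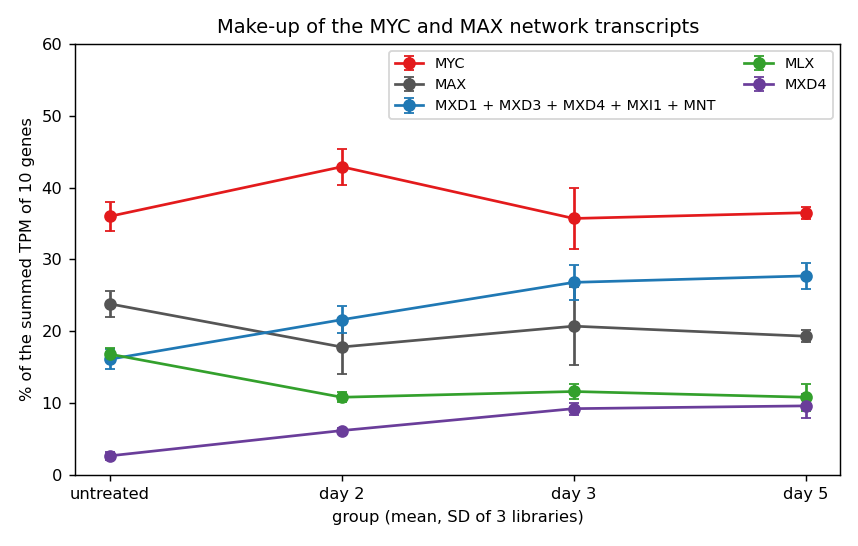
Share of the summed TPM of the 10 network genes (vertical axis, %) held by MYC, MAX, MLX, MXD4 and the sum of 5 repressors in each group (horizontal axis), as mean and SD of 3 libraries. The repressors, which include MXD4, went from 16.1% in untreated cells to 27.7% at day 5, while MYC was at 36.0% and 36.5%.

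Ratios within a library set the MYC transcript against those of MAX and of the 5 repressors, without MGA. They are ratios of transcripts and do not give protein levels. The ratio of MYC to the summed 5 repressors was 2.64, 2.1 and 2.04 in untreated libraries, 2.05, 1.97 and 1.93 at day 2, then 1.09, 1.57 and 1.38 at day 3 followed by 1.34, 1.22 and 1.40 on day 5. The libraries of days 3 and 5 were all below those of untreated and day 2 cells, which overlapped each other. The ratio of MYC to MAX was 1.52 ± 0.157 in untreated cells, 2.50 ± 0.606 at day 2, then 1.85 ± 0.721 and 1.90 ± 0.0716 on days 3 and 5 (SD, n = 3), with single day 3 libraries from 1.23 to 2.64. For the other pair of partners, the ratio of MLXIP to MLX was 0.219 ± 0.0243 before treatment and 0.403 ± 0.0355 at day 2 (SD, n = 3), without overlap, and 0.281 ± 0.0492 and 0.351 ± 0.103 later (SD, n = 3). MXD4 stood at 0.0741 ± 0.0187 of the MYC level in untreated cells and at 0.264 ± 0.0502 at day 5 (SD, n = 3).

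By mean TPM, untreated cells had MYC, MAX, MLX and MXI1 in that order, with no overlap between neighbours. MLXIP and MGA followed with overlapping ranges, then MXD4, MNT and MXD3, each overlapping the next, and last MXD1. At day 2 MXD4 was in place 5 of 10, below MXI1 and MLX, whose ranges overlapped, and above MLXIP. At day 5 MYC was still first and apart from the rest, while MAX, MXI1, MLX and MXD4 each overlapped the next. MLXIP, MNT, MGA, MXD1 and MXD3 came last, each again overlapping its neighbour.

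Of the 4 listed targets of MLXIP and MLX, 1 was higher at day 2, 2 at day 3 and 2 at day 5. Over all features 8.03%, 7.59% and 7.73% were higher on these days. MLXIP and MLX were called lower at days 3 and 5 on the deposited scale. After rescaling only MLX was, at day 5. TXNIP, which encodes an inhibitor of glucose uptake and is the best known target of this pair, was at 34.3, 35.0 and 31.9 TPM in untreated libraries, 69.2, 70.3 and 72.8 TPM at day 2, 55.7, 61.0 and 53.7 TPM at day 3, and 50.3, 53.1 and 68.1 TPM at day 5. All treated libraries lay above the untreated ones. TXNIP rose by 1.05 at day 2 (adjusted p = 4.71e-06), 0.73 at day 3 (adjusted p = 2.61e-05) and 0.73 at day 5 (adjusted p = 2.01e-05). ARRDC3, a related arrestin, had a mean of 8.65 TPM in untreated cells and 12.4, 23.8 and 19.4 TPM at days 2, 3 and 5, and rose by 1.36 at day 3 (adjusted p = 4.97e-07) and 1.08 at day 5 (adjusted p = 2.70e-06). ARRDC4, another known target of the pair, had means of 1.57, 2.24, 1.29 and 1.18 TPM in the 4 groups and was not called on any day. ARRDC2 went from 3.63 to 1.87 TPM at day 5 and fell by 0.69 (adjusted p = 5.50e-04), but after rescaling its difference was 0.19. After rescaling TXNIP and ARRDC3 were higher by 1.93 and 2.21 at day 5.

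Promoter windows from RefSeq (GRCh38.p14), from 250 bases before to 50 after each gene's start, were searched on both strands for CACGTG, the E-box bound by MAX dimers, and for 2 copies of CACGNG in the same direction with 5 bases between them, a form of the carbohydrate response element bound by MLX dimers. CACGTG was in 7.26% of 35116 windows and in 8.77% of 27305 genes, and the paired form was in 0.057% of windows and 0.0732% of genes. MYC was not among the 9 members searched. The CACGTG motif was in a window of 3 of the 9, MXD4, MNT and MLX. The paired form was in none of the 9 but was in the window of TXNIP. The matches are shown because they belong to MXD4, MLX and MNT and to targets of MLXIP and MLX. Motif letters are in capitals, each sequence is written 5′ to 3′ on its gene's strand, and a match is not evidence of binding.
TXNIP (chr1:145996645-145996673, minus, motif starting 88 bases upstream): gatgtgCACGAGGGCAGCACGAGcctccg
MXD4 (chr4:2262332-2262357, minus, 238 bases upstream): gccgggccacCACGTGctgttgctaa
ARRDC4 (chr15:97960483-97960508, plus, 210 bases upstream): acggcctgtgCACGTGcacgccggag
MNT (chr17:2401238-2401263, minus, 193 bases upstream): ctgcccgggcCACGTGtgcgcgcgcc
MLX (chr17:42567040-42567065, plus, 50 bases upstream): gggcgcgggtCACGTGggcacgccac
MXD4 and MLX, with the same 6 letters in these windows, had opposite log2 changes at day 5, 0.68 and -1.68.

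Genes that act with the network were described in lists written from general knowledge. Over all features 23.2%, 61.5% and 69.8% were called lower at days 2, 3 and 5. After rescaling 26.9% of all features were lower and 27.5% higher at day 5. Of 14 genes for MYC co-activators, such as histone acetyltransferases and the WDR5 and HCFC1 scaffolds, 6 were lower at day 2, 13 at day 3 and 14 at day 5, and 0 were higher. Their median log2 change at day 5 was -1.78, against -0.99 for all features, and HCFC1, the lowest of them, fell by 2.36. After rescaling 9 of 14 were lower at day 5. Of 11 SIN3 and NCOR corepressor genes, through which the MXD proteins act, 10 were lower at day 5 (median -1.75), led by the histone-binding RBBP7 at -2.41, and after rescaling 6 were lower and 2 higher. Of 12 genes for the MGA-PRC1.6 complex, 11 were lower at day 5 (median -1.47), led by TFDP1, the dimer partner of E2F factors, at -2.83, and after rescaling 5 were lower and 2 higher.

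Of 16 genes listed for MYC protein turnover, 9 were lower at day 2, 12 at day 3 and 13 at day 5 (median -1.61). Over all features 23.2%, 61.5% and 69.8% were lower on these days, and 0 of the 16 were higher on any. After rescaling 10 were lower and 1 higher at day 3, where 24.2% and 23.9% of all features were. At day 5, 7 were lower and 3 higher after rescaling, where 26.9% and 27.5% of all features were. The mitotic kinase gene PLK1, the lowest of the list, fell by 5.68. Named after their values were seen, AURKA, a kinase that shields MYC family proteins, fell by 5.18, and CIP2A, an inhibitor of the phosphatase PP2A, fell by 4.39. FBXW7, the ubiquitin ligase subunit that marks MYC for destruction, was named in the same way. It was at -0.25 (adjusted p = 0.172) and at 0.84 after rescaling. SKP2, GSK3B and HUWE1, also named in this way, were at -2.49, -1.57 and -1.52 at day 5, and at -1.45, -0.46 and -0.38 after rescaling. The list mixes genes that shield MYC with genes that mark it for destruction, so its counts give no direction for MYC protein. PLK1, AURKA and CIP2A are also genes of cycling cells.

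The list of known MYC-activated genes had a median below that of all features on each day. Of 29 tested, 25 were lower at day 2, 26 at day 3 and 27 at day 5, and 0 were higher. Over all features 23.2%, 61.5% and 69.8% were lower on these days. The medians of the 29 were -0.79, -1.58 and -2.18. At day 2 MYC itself stood at 0.41, short of the test. NOLC1, a nucleolar phosphoprotein, had the largest fall and fell by 3.06 at day 5. Named after their values were seen, LDHA, which makes lactate, fell by 2.66, and NCL, the nucleolar protein nucleolin, fell by 2.42. After rescaling 20 were lower and 3 higher at day 5, where 26.9% and 27.5% of all features were. TERT was too low to be tested. Of 12 tested genes that MYC is known to repress, 5 were lower and 1 higher at day 5 (median -0.15). The shares of all features were 69.8% and 7.73%. After rescaling 2 of the 12 were lower and 7 higher, against 26.9% and 27.5% of all features. NDRG1, a stress-induced gene, had the largest fall and fell by 2.40, and GADD45B, a stress sensor, was the 1 that rose, by 0.54. At day 2, 2 of the 12 were lower and 2 higher, or 0 and 6 after rescaling. BTG2, an antiproliferative gene named after its values were seen, rose by 1.02 at day 2 but was at -0.18 at day 5, not called. BTG1, CDKN1A and ID2 were named in the same way. BTG1 was the other gene called higher at day 2, at 0.59, and CDKN1A and ID2 were the 2 lower, at -0.52 and -0.71. CDKN1A was also lower at day 5, at -1.62.

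Around the MYC locus and among its plasma cell regulators, 4 of 5 genes were lower at day 5 and 0 higher, where 69.8% of all features were lower. PVT1, the long noncoding RNA gene next to MYC, went from 11.2 to 5.30 TPM and fell by 0.97. IRF4, the factor that forms a loop with MYC in myeloma, went from 192 to 93.0 TPM and fell by 1.09, with 198 TPM at day 2. IKZF1 and IKZF3, lymphoid factors upstream of IRF4, fell by 2.09 and 0.76. PRDM1, the plasma cell factor known to repress MYC, was at 106 TPM in untreated cells and 130 TPM at day 5, a difference of 0.28 (adjusted p = 0.04) under the fold limit. After rescaling PRDM1 was higher by 1.5 and IKZF1 lower by -0.94, and PVT1, IRF4 and IKZF3 were not called. Of the network's relatives outside the 10 members, MYCN, MYCL and MLXIPL had untreated means of 0.0586, 0.985 and 0.00332 TPM and were not tested. MYCBP and MYCBP2, which encode MYC-binding proteins, fell by 1.31 and 1.21 at day 5, and after rescaling their differences were -0.13 and -0.17.

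The features whose profiles were most like those of single members were found by Pearson's r over the 12 libraries on the rescaled log2 values, among 5432 other features whose mean TPM was 10 or more. The values are a description, since the libraries share their groups and scaling. MYC was most like TENM3 (r = 0.97), ADGRE5 (r = 0.965) and FNDC3B (r = 0.965), each of which had its highest mean TPM at day 2. MAX had no close match, its highest r being 0.757 for BORCS8, 0.709 for ATXN7L3 and 0.706 for WAC. MXD4 was most like the histone gene H2AC19 (r = 0.991), the thymidine phosphorylase gene TYMP (r = 0.99) and the interferon-induced gene IFI27 (r = 0.988). IFI27 went from a mean of 21.97 TPM in untreated cells to 1104 TPM at day 2 and 1455 TPM at day 3. MLX was most like the zinc transporter gene SLC39A4 (r = 0.975), the splicing factor gene SNRPA1 (r = 0.974) and RUSC1 (r = 0.973).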

How the data were processed

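Total RNA of MM1S cells was sequenced in 12 libraries. The submitters' processing notes name FastQC, Trimmomatic, STAR and Salmon and the build hg38, and versions, parameters and annotation are not given in the sources used here. The authors deposited log2 values of TPM plus 1, with features listed by gene symbol. From these, features reaching a TPM of 1 in 3 or more libraries were fitted together in 4 groups with limma 3.58.1 in R 4.3.3, with a mean-variance trend, two-sided tests and Benjamini-Hochberg adjustment within each comparison. For rescaling, each library was divided by 2 to the power of its median log2 difference from the mean over libraries, across features whose mean TPM was 10 or more. TPM keeps no depth, so precision is read from the spread between libraries. The fit was tested on simulated data in which few features changed, in both directions, with no shift between libraries. That test does not cover a fall of most features, as seen here.

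The members and gene lists were chosen with earlier results of these data known. Genes named were the 10 members, the called gene with the largest fall and rise at day 5 in each pathway list, every gene of short lists, and the 3 features with the highest r for MYC, MAX and the members with the largest rise and fall, with cell type markers used only as a check, besides those said to be named after their values were seen. No test was run over a list. Alternatives were rescaling, a TPM minimum of 5, no filter, a pseudocount of 0.1, pairwise fits, no trend, TPM recomputed without the 20 top features, a log2 change over 1 and leaving out each library. Leaving out day 3 library 2 and day 5 library 3 together was added after seeing the data. Figures were drawn with matplotlib 3.10.9.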

Additional observations from a re-analysis of the deposited data

Results flagged for a closer look

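Of the members, 4 were lower at day 3 than at day 2 under both scalings, by the limma test. Over all features 55.5% were lower in this step on the deposited scale and 13.6% after rescaling. The rescaled call of MYC was lost without day 3 library 1, at -0.44. That of MGA was lost without day 2 library 1, day 2 library 2 or day 3 library 1, at -0.56, -0.58 and -0.39. On the deposited scale the difference was -1.21 for MYC (adjusted p = 1.14e-04), -1.42 for MXD3 (adjusted p = 2.83e-05), -1.11 for MGA (adjusted p = 8.73e-04) and -1.22 for MLXIP (adjusted p = 1.84e-04). For MYC and MLXIP the day 2 libraries lay above, and the day 3 libraries below, the untreated libraries. MXD3 and MGA overlapped the untreated libraries at day 2 and lay below them at day 3. Whether the libraries of these days were made together is not given in the sources used here.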

How the results depend on the processing

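Pairwise fits, no variance trend and a pseudocount of 0.1 changed none of 40 calls on the members, by adjusted p and fold limit together, between each day and untreated and between days 3 and 2. The adjusted p alone crossed 0.05 for MYC and MLXIP at day 2 (0.00422 and 0.018) and MXI1 at day 5 (0.053) with pairwise fits, for MXI1 at day 2 (0.0523) and MXD1 at day 5 (0.0373) with no trend, and for MXI1 at day 2 (0.0506) with the pseudocount. Rescaling moved the counts to 4 higher at day 2, to 2 in each direction at day 3, to 3 lower with 2 higher at day 5, and to 4 lower from day 2 to day 3. It reversed the differences of MYC (0.055 at day 3, 0.14 at day 5), MXD1 (0.27, 0.44), MXI1 (0.70, 0.74, and 0.039 from day 2 to day 3), MNT (0.19 at day 5), MLXIP (0.11 at day 5) and MXD4 (0.24 from day 2 to day 3). Without the 20 most abundant features 3 members were higher at day 2, 6 were lower at day 5 and 6 from day 2 to day 3, and MXI1 was at 0.12 at day 3. With a log2 limit of 1 there were 4 lower with 0 higher at day 3, 0 higher at day 5, and 4 lower from day 2 to day 3. Leaving out single libraries gave 0 to 1 lower and 1 to 2 higher at day 2, and 0 to 1 lower from day 3 to day 5. It moved MXD3 at day 2 between -0.077 and 0.19, MNT at day 2 between -0.029 and 0.096, and the log2 ratio of MYC to MAX at day 3, relative to untreated, between -0.077 and 0.47. Except for rescaling, which divides every TPM of a library by 1 factor, the cause was not tested. Because 1 is added before the log, rescaling moves the log2 values of low genes less. At day 5 it moved MYC from -1.06 to 0.14 and MXD3 from -1.56 to -0.82. No paired analysis was possible because the replicate numbers were given in accession order and no label pairs the libraries. TPM keeps no counts, so the counting error of the low members MXD1 and MXD3 is unknown.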
